A study of Drosophila melanogaster with 4 samples.

Results

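The regions described here are the HP1b-enriched regions on 5 assembled heterochromatin scaffolds of the Drosophila melanogaster genome, release 5 of FlyBase. These are 2LHet, 3LHet, 3RHet, XHet and YHet, and other heterochromatic sequence of the assembly is not part of them. They were chosen by the sequence name in the lists of enriched regions, with no use of a measured value. The series-wide list held 412 of them among 9130 regions (4.51%), ChIP replicate 1 held 114 among 5248 (2.17%), and ChIP replicate 2 held 77 among 4633 (1.66%). The 5 scaffolds together span 5.99 Mb, of which 3LHet (2.56 Mb) and 3RHet (2.52 Mb) make up most, against 0.369 Mb for 2LHet, 0.347 Mb for YHet and 0.204 Mb for XHet.

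Binding was assayed in wild-type embryos of Oregon-R, a standard laboratory strain, at 14 to 16 h by ChIP-seq, in which DNA bound by a protein is precipitated with an antibody and sequenced. The study had 2 ChIP libraries, precipitated with the HP1b antibody Q4114, and 2 Input libraries of unprecipitated DNA. Per the sample descriptions, the Input library of a replicate number was the background for the ChIP library of that number. All libraries share the strain, genotype and stage. The chromatin came from whole embryos, so a locus bound in few cells and a locus weakly bound in many cannot be told apart, and the labels do not give the sex of the embryos.

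HP1b belongs to the Heterochromatin Protein 1 family, whose chromodomain recognises methylated histone tails typical of heterochromatin and whose chromoshadow domain pairs the proteins with each other and with partners. In Drosophila, HP1a is known mainly from heterochromatin, whereas HP1b is known from both heterochromatin and euchromatin. The scaffolds hold repeat-rich sequence next to the centromeres of chromosomes 2, 3 and X and from the Y chromosome, where genes lie among transposon remnants and satellites.

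An enriched region is a stretch that the authors listed, with a start, an end and 1 score that the sources used here do not define. A higher score is read only as a higher rank within a list, and scores of different lists printed side by side may differ in scale. The shortest region was 1301 bp in each replicate list and 1001 bp in the series-wide list. The sources used here do not say how the series-wide list was built, and it shares its libraries with the replicate lists. The lists hold no read counts, so the depth behind each region is unknown. No list of regions of the Input libraries was analysed here. With 2 ChIP libraries the values below carry no test of a group difference, and regions of 1 library are not replicates of each other. The 2 libraries are named replicates in the labels, with nothing to say whether they came from separate collections of embryos, so their spread could be purely technical.

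HP1b regions took up less of the scaffolds than of the major chromosome arms (2L, 2R, 3L, 3R and X) in both replicates. Cover, the percent of bases inside regions, was 4.13% of the 5 scaffolds in replicate 1 and 2.68% in replicate 2, a mean of 3.41% ± 1.02 (SD, n = 2). On the major arms it was 10.1% and 8.60%, a mean of 9.33% ± 1.03 (SD, n = 2). The difference, scaffolds minus arms, was -5.93 percentage points in replicate 1 and -5.91 in replicate 2, which is more than the spread between replicates on either side. An exact paired permutation test on 2 pairs cannot give a two-sided p below 0.5, so none is reported. The replicates differed more on the scaffolds than on the arms, with 1.54 times as much cover in replicate 1 as in replicate 2 on the scaffolds and 1.17 times on the arms. Chromosome 4, which is small and largely heterochromatic, stood higher than both, with 19.1% in replicate 1 and 14.5% in replicate 2. The lengths include assembly gaps, and the treatment of multiply mapping reads is not given. Both could change the cover, density and spacing found on repeat-rich scaffolds, which was not tested.

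The series-wide list gave a different picture of the same scaffolds. It covered 12.6% of them, against 15.5% of the major arms, and held 68.7 regions per Mb, against 67.1 on the arms. In the replicates the densities were 19.0 and 12.8 regions per Mb on the scaffolds, against 41.2 and 36.9 on the arms. The scaffolds thus had as many series-wide regions per Mb as the arms, and fewer replicate regions per Mb in each replicate. Scaffold regions were also narrower, with a median of 1477 bp in the series-wide list, 1794 bp in replicate 1 and 1694 bp in replicate 2, against 2065, 2191 and 2133 bp on the arms.

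The scaffolds differed among themselves. 3LHet had a cover of 6.01% in replicate 1 and 3.62% in replicate 2 (4.82% ± 1.69, SD, n = 2). 3RHet, of nearly the same length, had 2.60% and 1.86% (2.23% ± 0.520, SD, n = 2). In each replicate 3LHet was thus above 3RHet, although the lower value of 3LHet lay closer to 3RHet than to its own other replicate. On XHet replicate 2 gave the higher cover, 5.57% against 4.22% in replicate 1 (4.90% ± 0.957, SD, n = 2). On 2LHet the replicates gave 5.38% and 2.70% (4.04% ± 1.90, SD, n = 2). 3LHet lay above 2LHet in each replicate, though their ranges over the replicates overlap, and XHet was below both in replicate 1 and above both in replicate 2. YHet had no region in either replicate. In the series-wide list the cover was 13.6% of 2LHet, 16.7% of 3LHet, 9.48% of 3RHet, 15.8% of XHet and 1.88% of YHet.

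**Figure D1:**
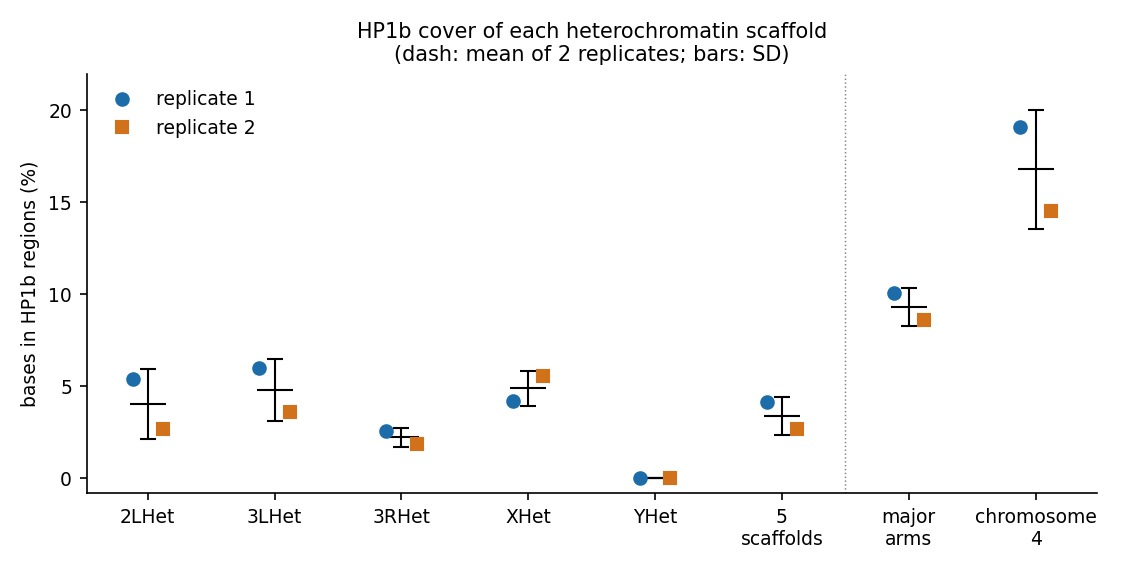
Percent of bases in HP1b regions (vertical axis) on each heterochromatin scaffold, on the 5 scaffolds together, on the 5 major arms and on chromosome 4; points are ChIP replicates 1 and 2, dashes their mean and bars the SD (n = 2). Every scaffold lies below the major arms in both replicates, and YHet is at 0 in both.

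Counts of regions ran alongside the cover. In the series-wide list, replicate 1 and replicate 2, 3LHet held 225, 72 and 45 regions and 3RHet held 133, 30 and 23. 2LHet held 30, 8 and 3 regions and XHet held 18, 4 and 6. YHet held 6 regions in the series-wide list and 0 in each replicate. From here each scaffold is taken in windows of 50 kb, 123 in all, the last of each scaffold being shorter. The series-wide list left 16 of the 123 windows (13.0%) without any base in a region, close to the 293 of 2383 windows (12.3%) on the major arms. Replicate 1 left 61 scaffold windows empty (49.6%) and replicate 2 left 78 (63.4%), against 25.4% and 28.5% of the windows on the arms.

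Both replicates covered 38 of the 123 windows, replicate 1 alone covered 24, replicate 2 alone covered 7, and neither covered 54. Of the 54 windows empty in both replicates, 38 held at least 1 base of a series-wide region. Across the 123 windows the replicates' cover correlated with a rho of 0.70 (Spearman) and an r of 0.82 (Pearson), against a rho of 0.93 over the 2383 windows of the arms. These correlations describe windows of the same libraries, and many scaffold windows are at 0 in both.

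**Figure D2:**
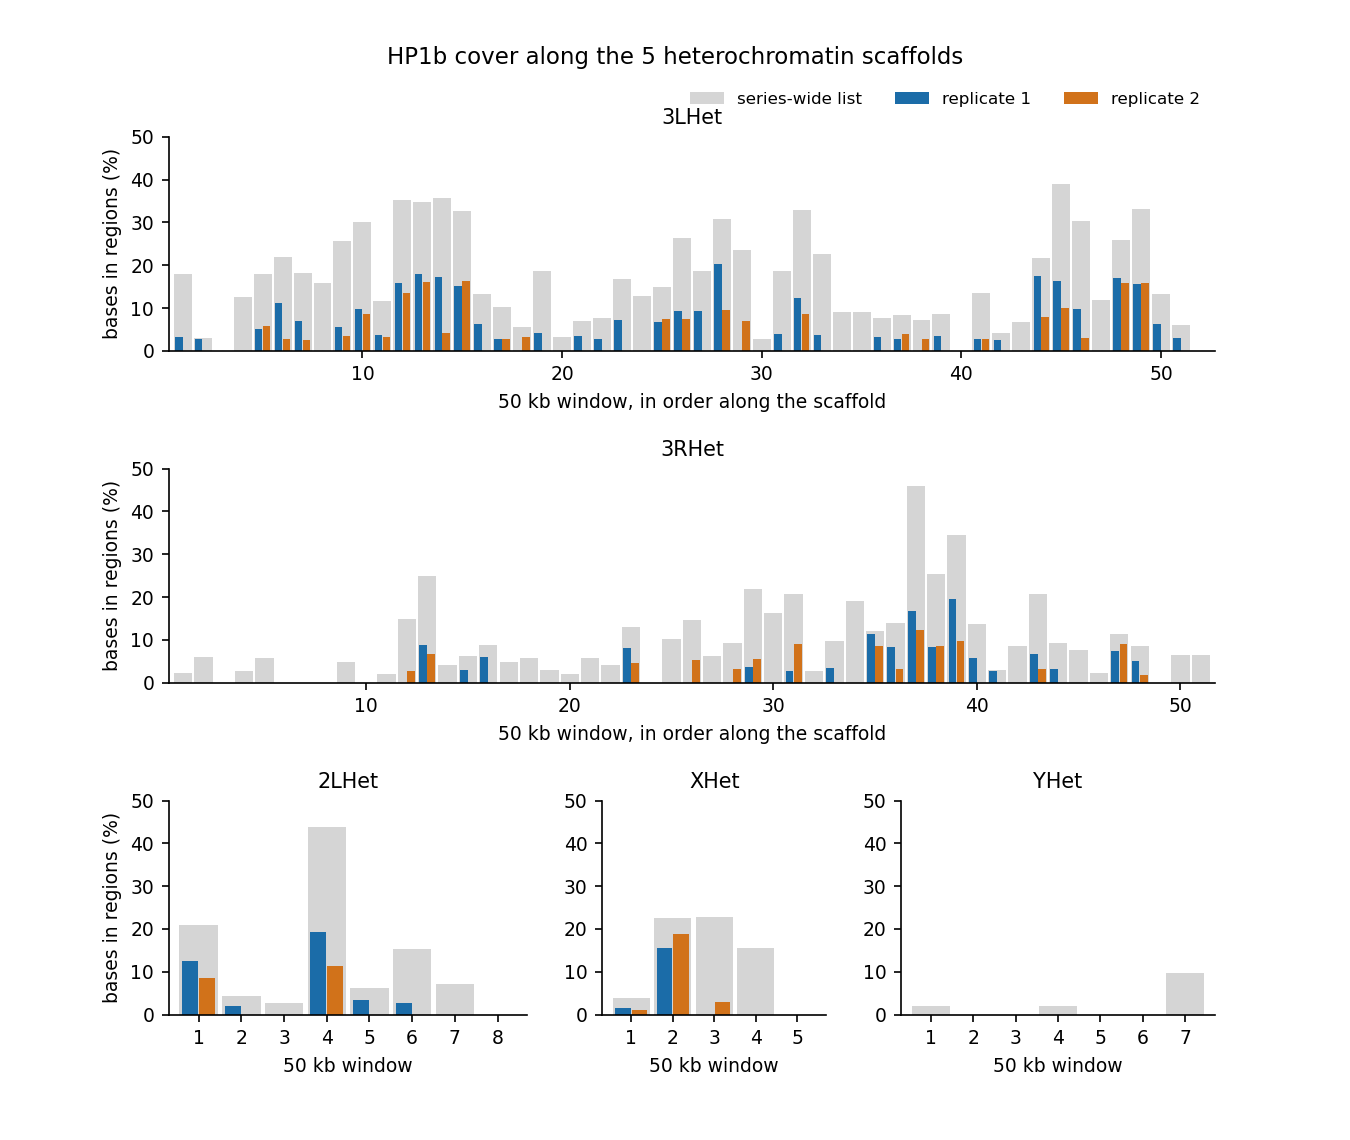
Percent of bases in HP1b regions (vertical axis) in successive 50 kb windows along each scaffold (horizontal axis, window number); grey bars are the series-wide list, blue bars replicate 1 and orange bars replicate 2. Replicate bars gather in a few stretches of 3LHet, are tallest at windows 37 and 39 on 3RHet, and are absent from YHet, which has grey bars only.

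On 3LHet the cover of both replicates gathered in several stretches along the scaffold. In the series-wide list the most covered windows were 2200001 to 2250000, with 39.0%, and 650001 to 700000, with 35.6%. The first had 16.3% in replicate 1 and 10.1% in replicate 2, and the second had 17.3% and 4.15%. The window most covered in replicate 1 was 1350001 to 1400000, with 20.3% (9.49% in replicate 2), and that most covered in replicate 2 was 700001 to 750000, with 16.3% (15.1% in replicate 1). The top windows of the replicates therefore differed on this scaffold, while 600001 to 650000 ranked second in both, with 17.9% and 16.1%. Runs of windows with cover in both replicates numbered 10 and took 43.0% of 3LHet. The longest run, 400001 to 750000, held 47 series-wide regions, of which 8 overlapped a region of both replicates. The longest empty runs in replicate 1 were 3 of 100 kb, at 100001 to 200000, 1400001 to 1500000 and 1650001 to 1750000. In replicate 2 the longest was 300.0 kb, at 900001 to 1200000. Between 1600001 and 2150000 no window held a region found in both replicates.

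In the replicates 3RHet was bare at its start and most covered in the last of 3 equal parts. From 2400001 to its end at 2517507 it was bare again in both. Replicate 1 had no region in the first 600 kb and replicate 2 none in the first 550 kb, where the series-wide list still listed regions. Cut into 3 equal parts, 3RHet had a replicate 1 cover of 1.06%, 1.07% and 5.67% from start to end, and a replicate 2 cover of 0.565%, 1.66% and 3.36%. The series-wide cover of the same parts was 5.21%, 9.34% and 13.9%. All 3 lists thus placed the highest cover in the last part of 3RHet. On 3LHet the series-wide cover ran the other way, with 19.8%, 16.0% and 14.5%, and the replicates had their lowest cover in the middle part, 4.89% in replicate 1 and 2.55% in replicate 2.

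The longest run of windows on 3RHet with cover in both replicates was 1700001 to 1950000. It held 27 series-wide regions, and 6 of the 12 regions of the scaffold found in both replicates lay in it. Its windows 1800001 to 1850000 and 1900001 to 1950000 were the top pair in all 3 lists. The first had 46.0% in the series-wide list, 16.9% in replicate 1 and 12.2% in replicate 2, and the second had 34.5%, 19.7% and 9.72%.

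On 2LHet and XHet most of the replicate cover sat in 1 or 2 windows. On 2LHet the window 150001 to 200000 had 43.7% in the series-wide list, 19.2% in replicate 1 and 11.4% in replicate 2, and the window 1 to 50000 had 20.9%, 12.4% and 8.56%. Replicate 2 had no region on the rest of 2LHet. On XHet the window 50001 to 100000 had 22.4% in the series-wide list, 15.6% in replicate 1 and 18.7% in replicate 2. The neighbouring window 100001 to 150000 had a similar series-wide cover, 22.8%, but 0% in replicate 1 and 2.91% in replicate 2. On YHet the last window, 300001 to 347038, had 9.63% in the series-wide list from 4 regions.

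Spacing was measured from the end of a region to the start of the next on the same scaffold. In the series-wide list the median gap was 5.41 kb on the scaffolds and 5.15 kb on the arms, a ratio of 1.05. In replicate 1 it was 21.8 kb on the scaffolds and 8.56 kb on the arms, a ratio of 2.54. In replicate 2 it was 27.6 kb on the scaffolds and 9.65 kb on the arms, a ratio of 2.86. The series-wide regions were thus spaced alike in both places at the median, and the replicate regions lay further apart on the scaffolds in each replicate. For the regions found in both replicates the median gap was 37.2 kb on the scaffolds and 10.7 kb on the arms.

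**Figure D3:**
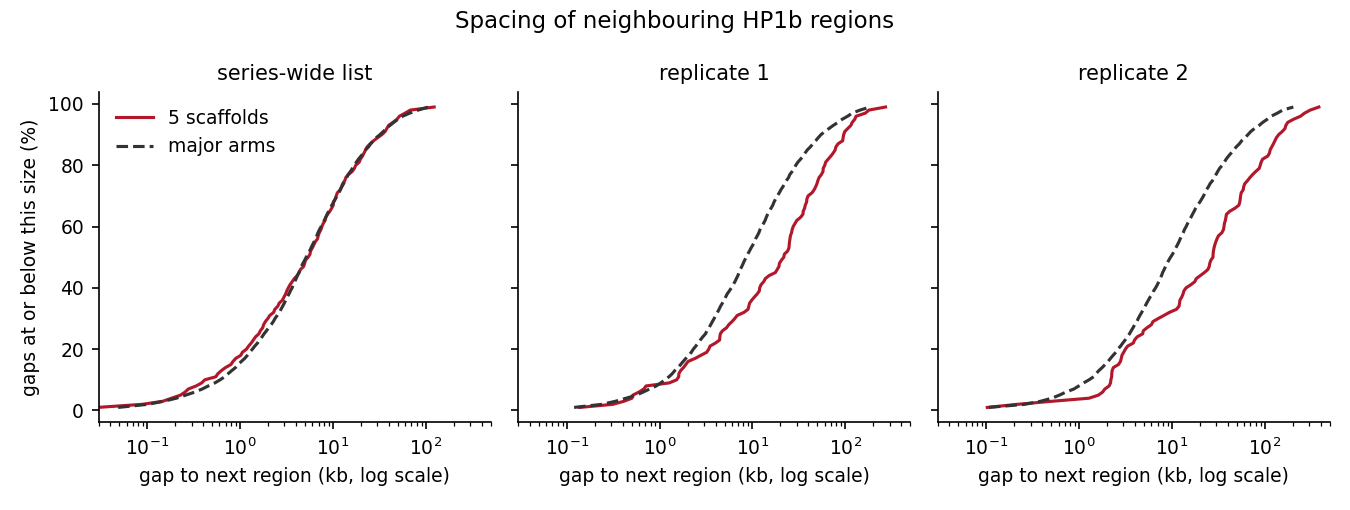
Cumulative percent of gaps between neighbouring HP1b regions (vertical axis) at or below a given size in kb (horizontal axis, log scale) in the series-wide list and in each ChIP replicate; red lines are the 5 scaffolds and dashed lines the major arms. The lines nearly coincide in the series-wide list (medians 5.41 and 5.15 kb) and part in the replicates, with longer gaps on the scaffolds.

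Each scaffold had its own spacing. Series-wide regions were closest on 3LHet, with a median gap of 4.81 kb, followed by 5.67 kb on XHet, 6.53 kb on 2LHet, 7.80 kb on 3RHet and 22.0 kb over the 5 gaps of YHet. In replicate 1 the median gaps were 21.8 kb on 3LHet, 35.2 kb on 3RHet, 13.8 kb on 2LHet and 9.24 kb on XHet. In replicate 2 they were 24.8 kb on 3LHet, 37.4 kb on 3RHet, 66.3 kb on 2LHet and 6.27 kb on XHet. 3RHet had longer gaps than 3LHet in all 3 lists, whereas the medians of 2LHet and XHet rest on 7 and 3 gaps in replicate 1 and on 2 and 5 in replicate 2.

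Regions less than 5 kb apart were joined into groups. The largest series-wide group on any scaffold was a run of 14 regions on 3LHet, from 670950 to 724712 and 53.8 kb long, and the next held 7 regions. The largest replicate groups held 5 regions and lay on 3LHet in nearly the same place, at 2391812 to 2410501 in replicate 1 and at 2386496 to 2410533 in replicate 2. Regions with no neighbour within 5 kb made up 57.0% of the scaffold regions in replicate 1 and 57.1% in replicate 2, against 41.6% and 45.1% on the arms. In the series-wide list that share was 29.4% on the scaffolds and 28.0% on the arms.

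Each series-wide region was next sorted by whether it overlapped, by at least 1 bp, a region of both replicates, of 1 replicate or of neither. On the scaffolds 43 of the 412 regions were found in both replicates (10.4%, 95% Wilson interval 7.84 to 13.8), against 41.9% of the whole series-wide list. Those found in neither replicate numbered 279 (67.7%, 63.1 to 72.1), against 38.1% of the whole list. A further 66 (16.0%) were found in replicate 1 only, against 13.8% of the whole list, and 24 (5.83%) in replicate 2 only, against 6.14%, both close to the whole list. On the major arms 46.1% were found in both and 33.9% in neither. These intervals hold counting error alone and treat each region as independent of the others. Most scaffold regions of the series-wide list therefore had no counterpart in a replicate list, whereas the largest class on the arms was the one found in both. On chromosome 4 the largest class was also the one found in neither, 48.8% against 38.1% found in both. Sequence outside the arms, these scaffolds and chromosome 4 was not described apart. Low shares found in both may therefore not be particular to these scaffolds.

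The intervals of the shares overlapped among the scaffolds. Those of 2LHet, XHet and YHet are wide, so the shares can neither be told apart nor be called alike. The regions found in both replicates were 25 of 225 on 3LHet (11.1%, 7.64 to 15.9), 12 of 133 on 3RHet (9.02%, 5.24 to 15.1), 2 of 30 on 2LHet (6.67%, 1.85 to 21.3), 4 of 18 on XHet (22.2%, 9.00 to 45.2) and 0 of 6 on YHet (upper limit 39.0%). Those found in neither were 143 on 3LHet (63.6%), 95 on 3RHet (71.4%), 22 on 2LHet (73.3%), 13 on XHet (72.2%) and all 6 on YHet. 2LHet had no region found in replicate 2 only, and XHet none found in replicate 1 only.

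Seen from the replicate lists, 45 of the 114 scaffold regions of replicate 1 overlapped a replicate 2 region (39.5%, 31.0 to 48.6), against 74.5% of all replicate 1 regions. Of the 77 scaffold regions of replicate 2, 46 overlapped a replicate 1 region (59.7%, 48.6 to 70.0), against 85.9% of all replicate 2 regions. Replicate 1 regions were found again for 27 of 72 on 3LHet, 12 of 30 on 3RHet, 2 of 8 on 2LHet and 4 of 4 on XHet. Replicate 2 regions were found again for 26 of 45 on 3LHet, 13 of 23 on 3RHet, 3 of 3 on 2LHet and 4 of 6 on XHet. In bases, the stretch shared by the replicates was 0.329 of the stretch covered by either on the scaffolds and 0.658 on the arms. XHet, with 0.627, stood near the arms in this measure, 2LHet had 0.461, 3RHet 0.321 and 3LHet 0.299.

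Regions found again were wider than those not found again. In replicate 1 the medians on the scaffolds were 2179 bp for those found again and 1629 bp for the others, and in replicate 2 they were 2079 and 1468 bp. The scores divided them in replicate 1 (median 0.70 found again, 0.57 not) but not in replicate 2 (0.73 found again, 0.74 not). On the arms the medians parted in both, 0.80 and 0.51 in replicate 1 and 0.78 and 0.61 in replicate 2. Some replicate regions on the scaffolds overlapped no series-wide region. In replicate 1 this was 1 of 114 (0.877%), on 3RHet at 2026983 to 2028299, against 0.381% of all replicate 1 regions. In replicate 2 it was 7 of 77 (9.09%), of 1317 to 1776 bp, against 1.23% of all replicate 2 regions. Among the 7 was the region on 3LHet at 2435899 to 2437674, with a replicate 2 score of 1.65, 5748 bp from the nearest series-wide region.

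The regions found in both replicates were wide, and those found in neither were narrow. Their widths had a median of 3623 bp (1807 to 9189) when found in both and 1261 bp (1001 to 3643) when found in neither. Of the regions found in neither, 150 of 279 (53.8%) were narrower than the narrowest replicate region, 1301 bp. That share was close to the one on the arms, 1350 of 2710 (49.8%), and on chromosome 4 it was 36 of 82 (43.9%). Overlap is met more readily by a wide region, so width and class are not independent measures. On the arms the medians were 2599 bp in both and 1301 bp in neither. The difference of the medians was 2362 bp on the 5 scaffolds and 1298 bp on the arms. By scaffold it was 4565 bp on 2LHet, 3162 bp on 3LHet, 2005 bp on 3RHet and 802 bp on XHet, in each case with the regions found in both the wider ones.

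Scores divided the classes less clearly on the scaffolds than on the arms. The median series-wide score was 0.64 (0.30 to 1.32) for scaffold regions found in both replicates and 0.45 (0.22 to 3.16) for those found in neither, a difference of 0.19. On the arms the medians were 0.72 and 0.39, a difference of 0.33. Chromosome 4 was like the scaffolds here, with medians of 0.56 and 0.37, a difference of 0.19, and a width difference of 2386 bp. The lower quartile of the scaffold regions found in both, 0.49, lay below the upper quartile of those found in neither, 0.57, so the classes overlapped in score. By scaffold the difference of the medians was 0.65 on 2LHet, 0.32 on 3RHet, 0.18 on 3LHet and 0.11 on XHet, on 2LHet with only 2 regions found in both.

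The highest series-wide scores on the scaffolds belonged to narrow regions that neither replicate listed. All of the 10 highest, with scores of 1.46 to 3.16 and widths of 1001 to 1237 bp, were found in neither. In all 13 regions scored above 1.32, the best of those found in both, and none of the 13 overlapped a replicate region, 12 of them being narrower than 1301 bp. On the arms 359 of the 388 regions above that score (92.5%) were found in both. Among the 10 highest-scoring regions of the arms, 3 were in both replicates and 6 in neither. Among the 20 highest, 4 were in both and 15 in neither on the scaffolds, against 10 in both and 9 in neither on the arms.

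Width and score were nearly unrelated over the 412 scaffold regions (Spearman rho -0.08), against a rho of 0.62 over the 7987 arm regions. The scaffolds and the arms were more alike among regions found in both and among those found in neither, but not among those found in 1 replicate only. Among regions found in both, rho was 0.39 on the scaffolds and 0.42 on the arms, and among regions found in neither it was -0.31 and -0.38. In replicate 1 only it was -0.01 on the scaffolds and 0.55 on the arms, and in replicate 2 only 0.05 and 0.40. These values describe regions of 1 list.

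**Figure D4:**
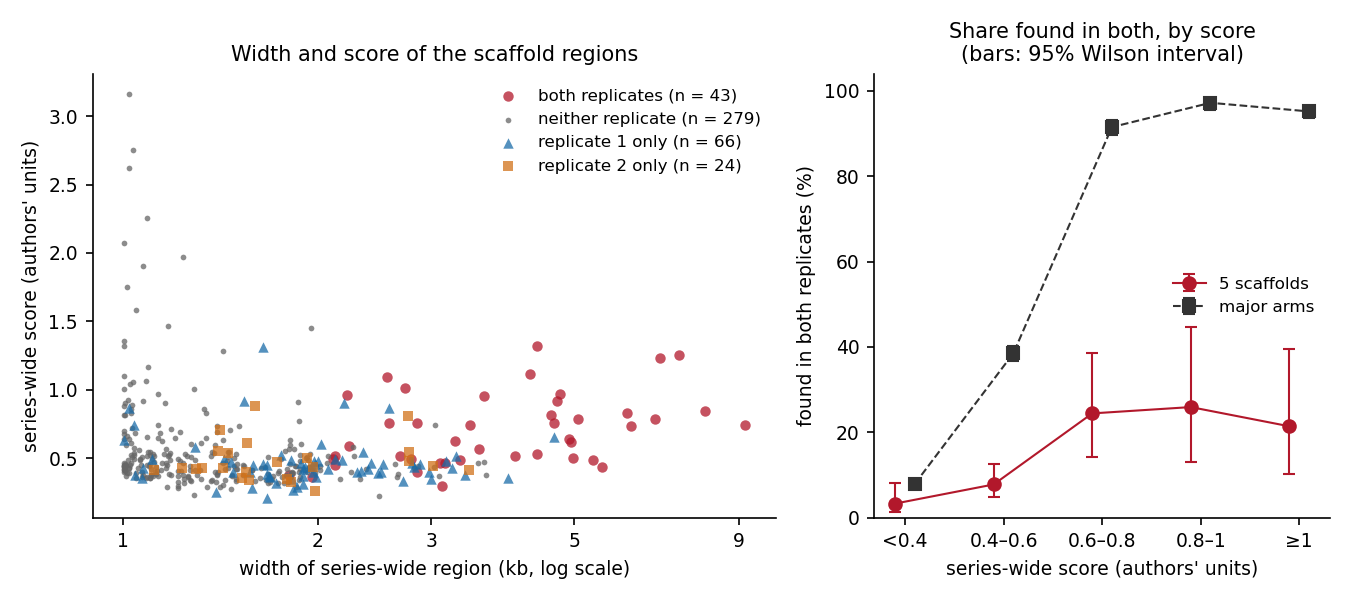
Left, series-wide score (vertical axis, authors' units) against width in kb (horizontal axis, log scale) of the 412 scaffold regions, with symbols for the replicates they were found in; right, percent of series-wide regions found in both replicates (vertical axis) by score band, with 95% Wilson intervals, for the 5 scaffolds (red) and the major arms (black). Regions in neither replicate form a column of narrow regions reaching a score of 3.16, regions in both lie to the right at no more than 1.32, and at scores from 0.6 the arms are at 91.5% or more while the scaffolds are at 25.9% or less. The score bands are not matched for width, and scaffold regions in the bands from 0.6 are narrower at the median.

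Set against score, the share found in both replicates stayed low on the scaffolds. For scores under 0.4 it was 3.33% on the scaffolds and 7.95% on the arms. At 0.4 to 0.6 it was 7.81% and 38.5%, at 0.6 to 0.8 it was 24.4% and 91.5%, and at 0.8 to 1 it was 25.9% and 97.2%. At scores of 1 and more, 6 of 28 scaffold regions were found in both (21.4%, 10.2 to 39.5) and 21 in neither, against 938 of 986 in both on the arms (95.1%, 93.6 to 96.3). From a score of 0.4 upward the Wilson intervals of the scaffolds and the arms did not overlap in any band. The score bands were not matched for width, however. At scores of 1 and more the median width was 1086 bp on the scaffolds and 2805 bp on the arms. At 0.6 to 0.8 it was 1399 and 2575 bp. No region of 1001 to 1300 bp was found in both replicates in either place.

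Set against width, the share was higher among wider regions in both places, and at each width from 1301 bp it was lower on the scaffolds. Among regions of 1001 to 1300 bp it was 0 of 161 on the scaffolds (upper limit 2.33%) and 0 of 1441 on the arms. At 1301 to 2000 bp it was 1.29% on the scaffolds and 7.12% on the arms, at 2001 to 3000 bp it was 22.6% and 78.2%, and from 3001 bp it was 67.4% and 90.2%. The shares found in neither were 93.2% on the scaffolds and 93.7% on the arms in the narrowest band, and 68.4% and 53.1%, 32.1% and 4.43%, and 14.0% and 1.90% in the wider ones. The narrowest regions thus had like shares in both places, and the shares parted from 1301 bp upward.

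**Figure D5:**
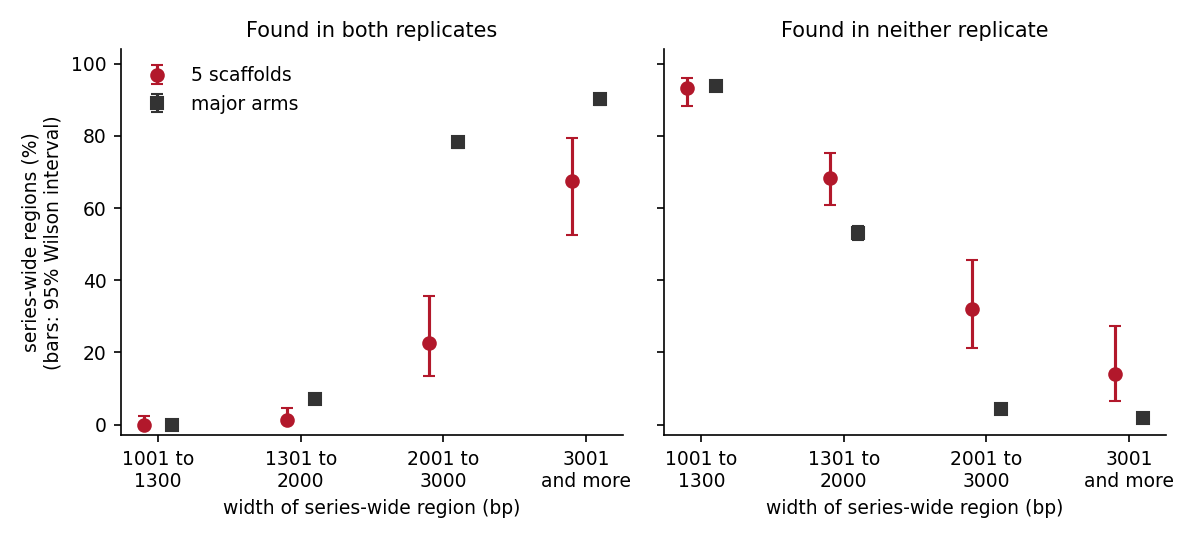
Percent of series-wide regions found in both replicates (left) and in neither (right), by width band in bp (horizontal axis), on the 5 scaffolds (red) and the major arms (black), with 95% Wilson intervals. At 1001 to 1300 bp the scaffolds and arms coincide, and at 2001 to 3000 bp 22.6% of scaffold regions and 78.2% of arm regions were found in both.

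Bands of score and of width were then combined. Among regions wider than 2000 bp, 41 of 96 scaffold regions were found in both replicates (42.7%, 33.3 to 52.7), against 3517 of 4270 on the arms (82.4%). Of these wide regions, those that also scored 0.6 or more were found in both for 24 of 30 on the scaffolds (80.0%, 62.7 to 90.5) and 2386 of 2408 on the arms (99.1%). At scores of 0.4 to 0.6 the wide regions gave 15 of 48 (31.3%, 19.9 to 45.3) and 67.2%, and under 0.4 they gave 2 of 18 (11.1%, 3.10 to 32.8) and 25.3%. Among regions of 1301 to 2000 bp with a score of 0.6 or more none was found in both, 0 of 20 on the scaffolds and 0 of 24 on the arms. Regions both wide and at a score of 0.6 or more were thus mostly found in both replicates on the scaffolds too. The share of wide regions was lower than on the arms in each score band, and under 0.4 the intervals overlapped. These intervals hold counting error alone and are no test of scaffolds against arms. The bands left differences, as wide regions scoring 0.6 or more had median widths of 4488 bp on the scaffolds and 2791 bp on the arms. Their median scores were 0.81 and 0.91.

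The classes also differed in where they lay. A scaffold region found in neither replicate was a median of 43.3 kb from the nearest region found in both, and 8.79% of them lay within 5 kb of 1, leaving out the 6 of YHet. On the arms that median was 9.39 kb and the share within 5 kb was 34.6%. Scaffold regions found in replicate 1 only were 32.6 kb away and those in replicate 2 only 17.4 kb away. The regions found in both were themselves 11.2 kb from the next of their kind on the scaffolds and 4.61 kb on the arms. Regions found in both are fewer per Mb on the scaffolds (7.18 against 30.9 on the arms), and the distances were not adjusted for this. Of the 279 regions found in neither, 97 (34.8%) lay in windows where no replicate had any cover. A series-wide region wholly inside such a window is found in neither by definition, so this share does not set the class apart. That share was 52.6% on 3RHet (50 of 95) and 22.4% on 3LHet (32 of 143). Such windows were 54 of the 123 in all, 30 of 51 on 3RHet and 12 of 52 on 3LHet. The contrast between the 2 scaffolds thus ran alongside their shares of such windows.

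At the 43 loci found in both replicates the replicate regions overlapped each other in 42. The exception was on 3LHet at 2382904 to 2387810, where 1 series-wide region spanned a replicate 1 region and a replicate 2 region that did not meet. The series-wide region was wider than both replicate regions at 40 of the 43 loci, and likewise at 3374 of 3679 on the arms. Its median factor was 1.22 over replicate 1 and 1.49 over replicate 2, against 1.07 and 1.13 on the arms. The scores of the replicate lists may differ in scale, with arm medians of 0.68 in replicate 1 and 0.74 in replicate 2. Differences between them are thus given as raw values and do not compare the strength of binding. Replicate 1 gave the higher raw score at 22 loci and replicate 2 at 21. The replicate scores differed by a median of 0.15 and by less than 0.3 at 36 loci. The largest difference, 0.94, was on 3LHet at 264566 to 270688, with 1.64 in replicate 1 (rank 228 of its list) and 0.70 in replicate 2 (rank 2651). Over the 43 loci the replicate scores had a Spearman rho of 0.72, against 0.85 over the 3679 such regions of the arms.

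On 3LHet the highest-scoring region found in both replicates was 1394806 to 1399182, of 4377 bp, with a series-wide score of 1.32 and scores of 1.52 in replicate 1 and 1.30 in replicate 2. The region at 600570 to 607366, of 6797 bp, scored 1.23, with 1.43 and 1.15 in the replicates. In its case the replicate regions had nearly the same borders, 600582 to 607088 in replicate 1 and 600617 to 607094 in replicate 2. The region at 660876 to 663434 was narrower, 2559 bp, and scored 1.09, with 1.17 and 1.21 in the replicates. The widest were not the highest in score. The widest region, 2189956 to 2199144, had 9189 bp and a score of 0.74, where replicate 1 had 2 regions of 8732 bp in all and replicate 2 had 1 region of 4010 bp. The second widest, 2390702 to 2398690, had 7989 bp and a score of 0.84, and each replicate split it into 2 regions.

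On 3RHet the highest-scoring region found in both was 2348320 to 2351048, of 2729 bp, with a score of 1.01, against 1.01 in replicate 1 and 1.16 in replicate 2. The region at 1140286 to 1143908 (3623 bp) scored 0.95, with 1.15 and 1.27 in the replicates. That at 1823110 to 1827812 (4703 bp) scored 0.91, with 1.13 and 0.74. The last of these lay in the run of windows that begins at 1700001, as did both of the widest. The widest, 1898570 to 1905252, had 6683 bp and scored 0.78, with 6410 bp in replicate 1 and 5789 bp in replicate 2. The next, 1705040 to 1711078, had 6039 bp and scored 0.83, with 5691 and 4267 bp.

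2LHet had 2 regions found in both, 1 in each of its well covered windows. The region at 167748 to 175004, of 7257 bp, scored 1.25, with 1.51 in replicate 1 and 1.23 in replicate 2. The region at 31740 to 36014, of 4275 bp, scored 1.12, with 1.25 in replicate 1 (rank 766 of its list) and 1.24 in replicate 2 (rank 522). On XHet the 4 regions found in both lay between 49130 and 85830 and were narrow for their class, 2117 to 2853 bp. The highest was 83610 to 85830, with a score of 0.96 (1.11 and 0.83 in the replicates), followed by 74616 to 77468 with 0.76 (0.95 and 0.94) and 60186 to 62314 with 0.51 (0.46 and 0.61).

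Among the regions found in neither replicate the highest score was on 3RHet, at 675558 to 676576. It had 1019 bp and a score of 3.16, rank 10 of the whole series-wide list. The next on that scaffold were 1075432 to 1076464 (2.75, 1033 bp) and 68150 to 70106 (1.45, 1957 bp). On 3LHet the highest were 448530 to 449548 (2.62, 1019 bp), 2319244 to 2320316 (1.90, 1073 bp) and 1081008 to 1082178 (1.46, 1171 bp). On 2LHet they were 334470 to 335556 (2.25, 1087 bp), 322858 to 323858 (2.07, 1001 bp) and 53256 to 54302 (1.58, 1047 bp). On XHet 15326 to 16338 reached 1.75 with 1013 bp, and the next were 111454 to 114498 (0.74, 3045 bp) and 125002 to 126346 (0.65, 1345 bp). All of these but 68150 to 70106 on 3RHet and the last pair on XHet were narrower than the shortest replicate region, and each scaffold but YHet thus held a narrow region that outscored every region found in both on that scaffold.

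The widest regions found in neither on 2LHet, 3LHet, 3RHet and XHet scored no more than 0.77. On 3LHet they were 939410 to 943052, of 3643 bp and a score of 0.38, and 2199318 to 2202934, of 3617 bp and a score of 0.47. The second began 173 bp after the widest region found in both. On 3RHet they were 1379624 to 1382706 (3083 bp, 0.37) and 1834956 to 1837988 (3033 bp, 0.44), and on 2LHet 189736 to 192066 (2331 bp, 0.35) and 298418 to 300292 (1875 bp, 0.77). On XHet the widest after 111454 to 114498 was 144806 to 146736 (1931 bp, 0.49).

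All of the 6 YHet regions were of this narrow kind. They lay at 25740 to 26740 (score 0.88), 162520 to 163520 (0.64), 300992 to 301992 (1.36), 302254 to 303490 (1.97), 304890 to 306112 (0.69) and 328078 to 329148 (0.92). Their widths ran from 1001 to 1237 bp, all below the 1301 bp of the shortest replicate region. The third to the fifth followed each other closely, with gaps of 261 and 1399 bp, while the gaps before them were 136 and 137 kb.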

How the data were processed

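HP1b ChIP libraries (2) and Input libraries (2) were grouped by the sample titles. The submitters' processing notes name Bowtie 0.12.7, and the file headers give FlyBase release 5 as the genome. The deposited lists give 1 score per region, ranked only within its list and set side by side across lists without a common scale. Not given in the sources used here are the region caller, its threshold, how the series-wide list was made, and the treatment of multiply mapping reads, which could change which repeat-rich stretches are listed.

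Cover used scaffold lengths from the file headers, assembly gaps included. A region of 3RHet that ends 293 bp past that length was cut there for cover. Overlap meant at least 1 bp, and intervals are 95% Wilson intervals. The software was scipy 1.17.1, pandas 2.3.3 and numpy 2.4.6 under Python 3.11.15, with matplotlib 3.10.9 for plots, and the overlap, cover and gap procedures were checked on simulated data.

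The regions were taken by sequence name alone, but this part of the series, the measures and the lists were chosen with earlier results of these data known. Regions were named by rule: per scaffold the 3 highest-scoring and the 2 widest of those found in both replicates and of those found in neither, and every region of a scaffold with 10 or fewer. Windows were named as the 2 most covered per list, with the longest empty run. The runs of windows shared by the replicates, the groups of neighbours, the 3 equal parts of a scaffold, the loci where replicates differ and the replicate regions outside the series-wide list were singled out after their values were seen. Genes and sequences are not given, as no genome of this release was used here. Alternatives were other lists, overlaps, window sizes, widths and score filters, single replicates, trimmed arms and leaving out each scaffold.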

Additional observations from a re-analysis of the deposited data

How the results depend on the processing

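Of 51 alternatives over 8 results, 5 of them chosen after seeing the data, 27 left the value within its error and 24 moved it. None of the signed differences changed sign, and the other results have no direction to reverse. Error was the SD over the 2 replicates for cover and its difference from the arms, and the Wilson interval for shares and empty windows. The median width difference had 1754 to 3490 bp and the median gap 4319 to 6443 bp. These errors are unlike, and the SD of the difference from the arms was only 0.012 percentage points. Of the 27, 5 could not have moved it, namely 4 that set a single replicate against the SD of both and 1 width filter that removes no replicate region, which leaves 22. Cover of the scaffolds (3.41%) became 12.6% with the series-wide list and 1.75% with the upper 50% of each list by score. Its difference from the arms (-5.92 percentage points) became -2.94 with the series-wide list, -6.65 with regions found in both, -3.90 with the upper 50% and -5.98 with arms without their centromeric 1 Mb. Empty windows in the series-wide list (13.0%) became 26.9% at 25 kb and 4.76% at 100 kb, 49.6% to 63.4% with 1 replicate's list and 74.0% for regions found in both.

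The share found in both (10.4%) became 6.31% at an overlap of 50% of both regions, 17.1% at a minimum width of 1301 bp, 18.0% in the upper 50% by score, 42.7% above 2000 bp, and 16.3% to 26.5% when only 1 replicate was required. The share in neither (67.7%) became 51.4% at the minimum width and 24.0% above 2000 bp. The median gap (5407 bp) became 7085 bp between midpoints, 8927 bp at the minimum width, 21757 to 27635 bp in 1 replicate's list and 37221 bp for regions found in both. The median differences of width and score between regions found in both and in neither stayed within their error when each scaffold was left out. No paired analysis was possible because the results come from no test between groups; the difference from the arms is given within each replicate. Read depth is unknown, so no region's absence from a list can be read as absence of HP1b.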
